A study of Sus scrofa with 22 samples.

Results

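The 5 genes described here encode proteins of the muscle sarcomere or its remodelling: ANKRD1, XIRP1 and PDLIM3, linked to the Z-disc and the neighbouring I-band, and MYOM2 and CAPN3, linked to the M-band and to titin. Every probe set (a group of short array probes for 1 transcript) that the array annotation assigned to 1 of these symbols alone was taken. That gave 7 of the 23999 probe sets tested, for 5 of 6765 named genes, with 2 probe sets each for ANKRD1 and CAPN3. The brightest probe set over all arrays stands for a gene below, and the other is given beside it.

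Transcript levels were measured on an Affymetrix porcine array in 22 offspring of German Landrace gilts. All gilts received an adequate protein (AP) diet in gestation, so no diet comparison was possible. The stages were 94 days post conception (94 dpc, 6 fetuses), then 1 day (1 dpn, 6 animals), 28 days (28 dpn, 6 animals) and 188 days after birth (188 dpn, 4 animals). Each stage drew on the offspring of 3 gilts, but the labels do not tie animals to gilts, so p-values are too small if littermates resembled each other. The sample labels named the tissue as liver and the series title named muscle. The signals went against the liver label: the 11 measured skeletal muscle markers summed to 221660 to 684200 in every array, against 2263 to 55597 for the 10 measured liver markers. Liver transcripts were not absent: their sum was 7758 to 55597 at 94 dpc and 2263 to 12206 later, with APOA1 at 7056 to 12790 in the fetuses and albumin at stage medians of 136, 232, 106 and 545 at 94 dpc, 1 dpn, 28 dpn and 188 dpn, above the background level of 69.7 set from control probe sets. The 5 measured heart markers summed to 2544 to 3826 at 94 dpc, mostly TNNT2 (2132 to 3335), and to 371 to 1126 later. The part of these transcripts in the results was not tested.

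As background, the Z-disc anchors the actin filaments of neighbouring sarcomeres, the M-band cross-links the myosin filaments at the sarcomere's centre, and titin spans from the Z-disc to the M-band. The roles given here are known mainly from human and rodent muscle. ANKRD1 is an ankyrin-repeat protein that binds titin in the I-band and is induced by stretch and injury. XIRP1 (Xin) is an actin-binding repeat protein that gathers at damaged or remodelling sarcomeres, and PDLIM3 is a PDZ-LIM adaptor that binds alpha-actinin at the Z-disc. MYOM2 (M-protein) links myosin filaments in the M-band, mainly of fast fibres. CAPN3 is a muscle calpain, a calcium-dependent protease bound to titin, and its loss causes a limb-girdle muscular dystrophy in humans.

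Signals were on a scale with a trimmed mean of 500 on each array. The 1 dpn arrays were not alike in the controls for 5' signal, which falls when RNA is degraded or copied incompletely. The 5' to 3' ratio of GAPDH was 1.14 to 1.15 in 1 dpn replicates 1 and 6 and 0.14 to 0.332 in 1 dpn replicates 2 to 5, while the other stages ranged over 0.731 to 1.26. EF1a, actin and another GAPDH pair separated the same arrays, whereas in the remaining GAPDH pair the low arrays (0.496 to 0.671) overlapped arrays of 28 dpn. Replicates 1 and 6 are called even and the other 4 low, and the comparisons of the 5 genes with 1 dpn are given with all 6 arrays and with either kind. A library difference and an animal difference cannot be told apart here, and the part of the 5' signal in the results was not tested.

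ANKRD1 was high at 1 dpn and 188 dpn and low at 94 dpc and 28 dpn. The lowest, median and highest signals were 365, 656 and 923 at 94 dpc, then 1417, 4039 and 14182 at 1 dpn, then 139, 753 and 2100 at 28 dpn. The 4 animals at 188 dpn had 16516, 18661, 2438 and 12660. Every animal at 188 dpn lay above every animal at 28 dpn and at 94 dpc, and every animal at 1 dpn lay above every animal at 94 dpc. The mean was 6457 ± 5562 at 1 dpn and 679 ± 209 at 94 dpc (SD, n = 6 each), a log2 fold change of 2.79 ± 0.60 (SE) or 6.92-fold on the log2(signal + 16) scale, with an adjusted p of 0.00102 in limma. At 28 dpn the mean was 860 ± 666, against 6457 ± 5562 at 1 dpn (SD, n = 6 each), with a log2 fold change of -2.77 ± 0.60 and an adjusted p of 0.00183. The step with the largest fold followed. At 188 dpn the mean was 12569 ± 7196 (SD, n = 4), against 860 ± 666 at 28 dpn, 14.7-fold higher (log2 3.88 ± 0.67, adjusted p = 0.000698). ANKRD1 did not pass the test at 28 dpn over 94 dpc (log2 0.016, 95% interval -1.23 to 1.27) or at 188 dpn over 1 dpn (2.15-fold, log2 interval -0.29 to 2.50). In whole tissue, fewer muscle fibres and less transcript per fibre cannot be told apart.

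The rise at 1 dpn over 94 dpc was called with either kind of 1 dpn array, at log2 4.34 ± 0.76 with the even arrays and log2 2.02 ± 0.60 with the low ones. Likewise 28 dpn over 1 dpn was called with both, at log2 -4.32 (adjusted p = 0.000781) with the even and with an adjusted p of 0.0167 with the low arrays. The even arrays held the highest ANKRD1 signals of 1 dpn (12725 and 14182), against 1417 to 4950 on the low arrays. The comparison of 188 dpn over 1 dpn changed direction: log2 -0.44 with the even arrays (adjusted p = 0.76) and log2 1.88 with the low arrays (adjusted p = 0.0313).

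The other ANKRD1 probe set was dimmer and had the same order of stages at 1 dpn and 188 dpn over their neighbours. Its lowest, median and highest signals were 45.9, 58.8 and 131 at 94 dpc, where 2 of 6 animals lay above background, then 203, 325 and 1047 at 1 dpn, then 28.8, 142 and 333 at 28 dpn. At 188 dpn it had 708, 1429, 309 and 467. With all arrays it was called in the same direction in the 3 successive steps: log2 2.23 ± 0.45 at 1 dpn over 94 dpc, -1.40 ± 0.45 at 28 dpn over 1 dpn and 2.06 ± 0.50 at 188 dpn over 28 dpn. The call at 28 dpn over 1 dpn was lost with the low arrays alone (log2 -0.93), under array weights (log2 -1.21), with only these stages fitted, and without 1 dpn replicate 1 (log2 -1.12), 1 dpn replicate 6 (log2 -1.31) or 28 dpn replicate 1 (log2 -1.05). At 28 dpn over 94 dpc the dimmer probe set changed by log2 0.83 (interval -0.09 to 1.76) and was not called in limma (adjusted p = 0.168). Without 28 dpn replicate 1 it was called there (log2 1.19, adjusted p = 0.0323). The log2 levels of both probe sets had a Pearson r of 0.914 over the 22 arrays, given as a description because the points share libraries and stages. The swings were nevertheless unequal. The ratio of the brighter to the dimmer probe set within an array changed by log2 -1.37 at 28 dpn over 1 dpn (exact permutation p = 0.00649) and by 1.82 at 188 dpn over 28 dpn (exact permutation p = 0.00952), both 0.019 after adjustment over 12 such tests.

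**Figure D1:**
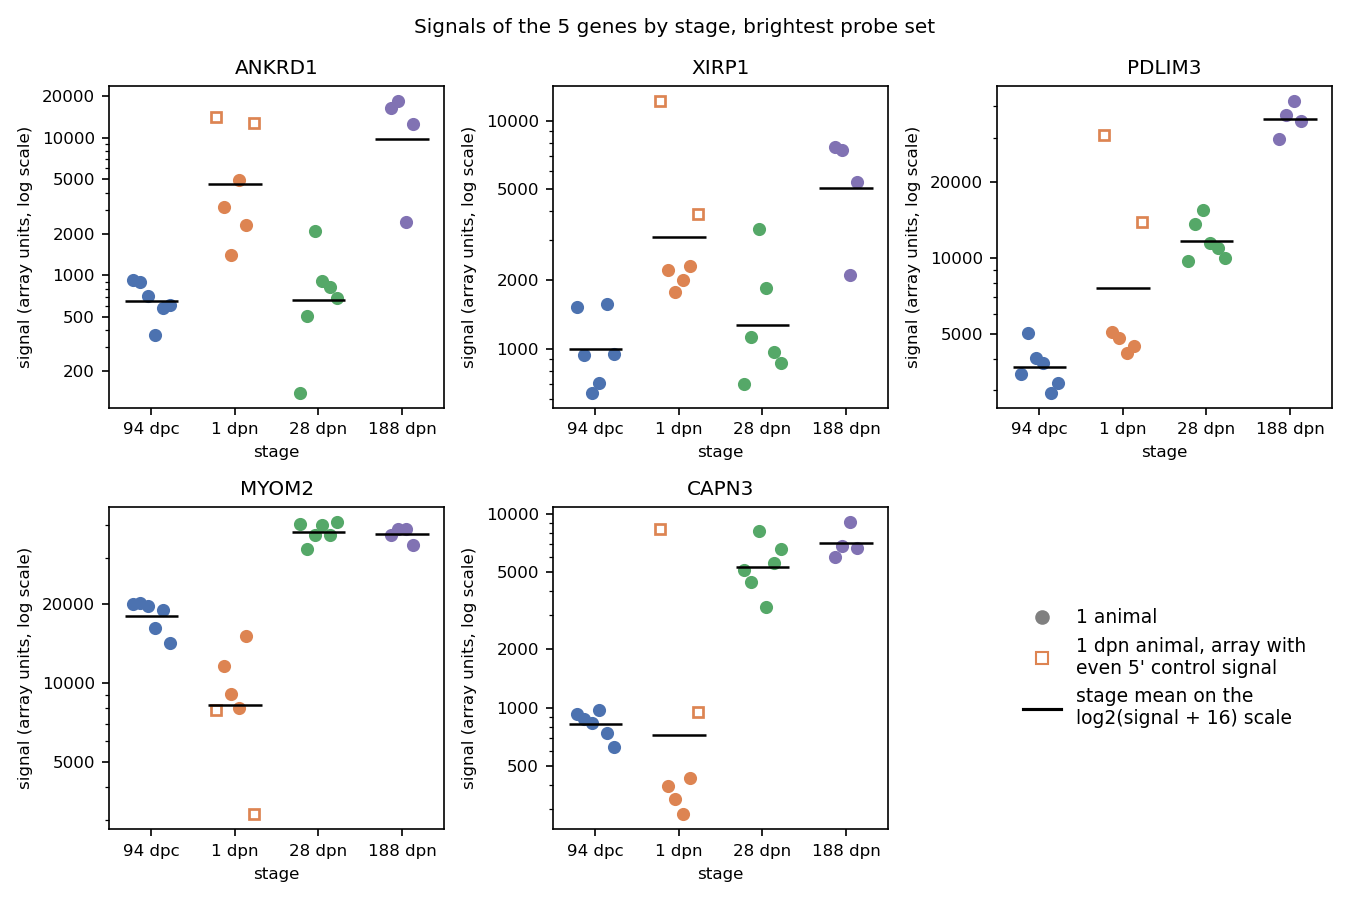
Signal of the 5 genes (brightest probe set, array units, log axis) in each animal at 94 dpc, 1 dpn, 28 dpn and 188 dpn. Each point is 1 animal, open squares are the 2 even arrays of 1 dpn, and bars are stage means on the log2(signal + 16) scale. ANKRD1 and XIRP1 are high at 1 dpn and 188 dpn, while MYOM2 is lowest at 1 dpn and between 32602 and 41128 at 28 dpn.

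XIRP1 followed the same order of stages, with smaller steps than the brighter ANKRD1 probe set. Its lowest, median and highest signals were 640, 945 and 1578 at 94 dpc, then 1769, 2259 and 12240 at 1 dpn, then 702, 1045 and 3352 at 28 dpn. The animals at 188 dpn had 7675, 7470, 2112 and 5375. All 1 dpn animals lay above all 94 dpc animals, whereas 188 dpn and 28 dpn overlapped through the lowest 188 dpn animal and the highest 28 dpn animal. XIRP1 averaged 4075 ± 4072 at 1 dpn and 1057 ± 402 at 94 dpc (SD, n = 6 each), which is 3.07-fold (log2 1.62 ± 0.45, adjusted p = 0.00761). At 188 dpn it averaged 5658 ± 2582 (SD, n = 4), against 1476 ± 1002 at 28 dpn (SD, n = 6), 3.96-fold (log2 1.98 ± 0.50, adjusted p = 0.0113). The fall at 28 dpn relative to 1 dpn was close to the threshold (log2 -1.28 ± 0.45, adjusted p = 0.0442). The call was lost under 15 of 34 alternatives, among them quantile normalization (adjusted p = 0.0587), and the change was log2 -0.88 without 1 dpn replicate 1 (adjusted p = 0.106).

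With the even arrays alone XIRP1 was log2 2.78 ± 0.59 higher at 1 dpn than at 94 dpc and was called (adjusted p = 0.00191). With the low arrays the difference was log2 1.04 ± 0.41 and missed the threshold (adjusted p = 0.0532), although every low array still lay above every 94 dpc array. The step to 28 dpn was log2 -2.44 with the even arrays (adjusted p = 0.00794) and -0.70 with the low arrays (adjusted p = 0.23). XIRP1 at 28 dpn over 94 dpc did not pass the test (log2 0.34, interval -0.59 to 1.27).

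PDLIM3 had its lowest mean at 94 dpc, a higher one at 28 dpn and its highest at 188 dpn. Its lowest, median and highest signals were 2923, 3665 and 5039 at 94 dpc, then 4196, 4945 and 30705 at 1 dpn, then 9737, 11246 and 15477 at 28 dpn. At 188 dpn the 4 animals had 29631, 36932, 42093 and 34795. All animals at 28 dpn lay above all at 94 dpc, and all at 188 dpn above all at 28 dpn. PDLIM3 averaged 35863 ± 5162 at 188 dpn (SD, n = 4), against 11894 ± 2245 at 28 dpn (SD, n = 6), 3.03-fold (log2 1.60 ± 0.40, adjusted p = 0.0107). At 28 dpn it was 3.16-fold above the 3753 ± 747 at 94 dpc (log2 1.66 ± 0.36, adjusted p = 0.00119).

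The position of 1 dpn in this order rested on which arrays were used. PDLIM3 had 13966 and 30705 on the even arrays and 4196 to 5079 on the low arrays of 1 dpn, with no overlap. At 1 dpn over 94 dpc the change was log2 1.04 ± 0.36 with all 6 arrays (adjusted p = 0.0289), 2.48 ± 0.28 with the even arrays (adjusted p = 8.16e-06) and 0.32 ± 0.17 with the low arrays (adjusted p = 0.157). Without 1 dpn replicate 1 it was log2 0.64 (adjusted p = 0.0521), and without 1 dpn replicate 6 it was log2 0.87 (adjusted p = 0.0735). At 28 dpn over 1 dpn the change was log2 0.62 with all arrays (adjusted p = 0.24), -0.82 with the even arrays (adjusted p = 0.0503) and 1.34 with the low arrays (adjusted p = 7.79e-06).

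MYOM2 was lowest at 1 dpn and then reached a level that was nearly the same in every animal. Its lowest, median and highest signals were 14264, 19314 and 20180 at 94 dpc, then 3146, 8551 and 15166 at 1 dpn, then 32602, 38367 and 41128 at 28 dpn. At 188 dpn it had 36752, 38713, 38866 and 33585. At 1 dpn 5 of 6 animals lay below all 94 dpc animals, and all animals at 28 dpn lay above all at 1 dpn. MYOM2 averaged 9152 ± 4035 at 1 dpn and 18233 ± 2421 at 94 dpc (SD, n = 6 each), with a log2 fold change of -1.13 ± 0.25 (adjusted p = 0.00115). At 28 dpn it averaged 37924 ± 3192, 4.57-fold above 1 dpn (log2 2.19 ± 0.25, adjusted p = 2.07e-06). At 188 dpn over 28 dpn the change was log2 -0.034 with an interval of -0.61 to 0.54 (adjusted p = 0.963).

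Both kinds of 1 dpn array gave the MYOM2 fall and the following rise. At 1 dpn over 94 dpc the change was log2 -1.86 ± 0.25 with the even arrays and -0.76 ± 0.17 with the low arrays, both called. At 28 dpn over 1 dpn it was log2 2.92 and 1.83, both called. The even arrays held the lowest 2 of the 6 MYOM2 signals at 1 dpn (3146 and 7858), though the lowest of the low arrays was close, at 8016. The brightest probe sets of the other 4 genes were higher on both even arrays than on any low array. The other CAPN3 probe set was not, at 809 and 3957 on the even and 952 to 1437 on the low arrays. At 188 dpn MYOM2 was 2.04-fold above 94 dpc (log2 1.03 ± 0.28, adjusted p = 0.00513), and at 28 dpn 2.09-fold above 94 dpc. Under quantile normalization these changes were log2 0.58 (adjusted p = 0.106) and 0.45 (adjusted p = 0.178). The summed skeletal muscle markers moved with them, at 571940 to 631000 at 188 dpn and 597170 to 684200 at 28 dpn, against 221660 to 295090 at 94 dpc, and their part in the result was not tested.

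CAPN3 was low before and around birth and high from 28 dpn. The brighter probe set had lowest, median and highest signals of 630, 855 and 969 at 94 dpc, then 282, 417 and 8351 at 1 dpn, then 3317, 5378 and 8182 at 28 dpn. At 188 dpn it had 6012, 6822, 9069 and 6647. Every animal at 28 dpn and at 188 dpn lay above every fetus, and only 1 dpn replicate 1, at 8351, reached into their range. CAPN3 averaged 5553 ± 1693 at 28 dpn and 829 ± 125 at 94 dpc (SD, n = 6 each), 6.39-fold (log2 2.68 ± 0.53, adjusted p = 0.000547). At 188 dpn it averaged 7137 ± 1334 (SD, n = 4), 8.44-fold above 94 dpc (log2 3.08 ± 0.59, adjusted p = 0.000248). From 28 dpn to 188 dpn no change was detected (log2 0.40, interval -0.83 to 1.63, adjusted p = 0.746).

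For CAPN3 the 1 dpn arrays gave opposite answers. The low arrays had 282 to 437, all below every 94 dpc animal, and the even arrays had 949 and 8351. At 1 dpn over 94 dpc the change was log2 -0.18 with all arrays (adjusted p = 0.829), 1.76 ± 0.51 with the even arrays (adjusted p = 0.0165) and -1.16 ± 0.22 with the low arrays (adjusted p = 0.00028). Without 1 dpn replicate 1 it was log2 -0.88 (adjusted p = 0.0107). At 28 dpn over 1 dpn the change was log2 2.86 ± 0.53 with all arrays (adjusted p = 0.00046), 0.91 with the even arrays (adjusted p = 0.255) and 3.83 with the low arrays (adjusted p = 2.24e-10).

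The other CAPN3 probe set did not show the postnatal rise. It had lowest, median and highest signals of 627, 670 and 1085 at 94 dpc, then 809, 1101 and 3957 at 1 dpn, then 834, 1076 and 1573 at 28 dpn. At 188 dpn it had 843, 893, 1509 and 1323. The stages overlapped throughout and the F test over the 4 stages was not passed (adjusted p = 0.16). At 1 dpn over 94 dpc it narrowly missed the threshold with all arrays (log2 0.76, adjusted p = 0.0521). It was called with the even arrays, under quantile normalization (log2 0.94) and after centring arrays on their median (log2 1.02). It was also called with a trended and robust variance and when only probe sets above the median level were fitted. The same held without 94 dpc replicate 3 or 4 or 1 dpn replicate 3, 4 or 6 (log2 0.84 to 0.90). The brighter over the dimmer probe set within an array changed by log2 2.19 at 28 dpn over 94 dpc (exact permutation p = 0.00216) and by 2.57 at 188 dpn over 94 dpc (exact permutation p = 0.00952), adjusted to 0.013 and 0.019 over the 12 tests. These are the smallest p that 6 against 6 and 4 against 6 animals allow. The log2 levels of the pair had an r of 0.419 over the 22 arrays. Hence the CAPN3 rise held for 1 of its 2 probe sets, and the annotation used here does not say which part of the transcript either covers.

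**Figure D2:**
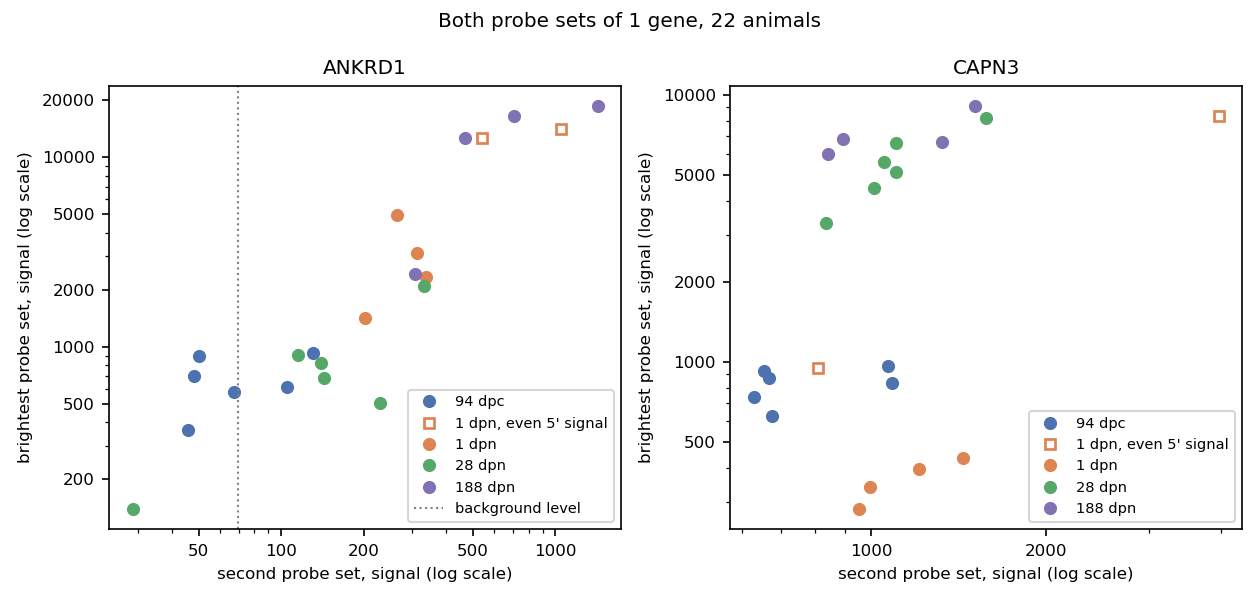
Signals of the brighter probe set (vertical, log axis) against the dimmer probe set (horizontal, log axis) for ANKRD1 and CAPN3 in 22 animals, coloured by stage, with open squares for the even arrays of 1 dpn and a dotted line at the background of 69.7. The ANKRD1 pair rises together (r 0.914), whereas the CAPN3 animals of 28 dpn and 188 dpn lie above the others at similar values of the dimmer probe set (r 0.419).

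Over the set as a whole, the F test over the 4 stages called 6 of 7 probe sets, where it called 51.4% of all. With all arrays, 3 of 5 genes were called higher at 1 dpn over 94 dpc (ANKRD1, XIRP1 and PDLIM3), where 10.9% of all probe sets were, and 1 lower (MYOM2), where 21.7% were. These counts were 4 higher and 1 lower with the even arrays, 1 higher and 2 lower with the low arrays, and 2 higher and 1 lower under quantile normalization. Between 1 dpn and 28 dpn, MYOM2 and CAPN3 were called higher and ANKRD1 and XIRP1 lower at 28 dpn over 1 dpn, against 13.9% and 8.39% of all probe sets. The counts there were 1 higher and 2 lower with the even arrays, and 3 higher and 1 lower with the low arrays. In the last step ANKRD1, XIRP1 and PDLIM3 were called higher at 188 dpn over 28 dpn and 0 genes lower in limma, against 3.65% and 8.2%. Over the whole span, all 5 genes were called higher at 188 dpn than at 94 dpc and 0 lower (4 higher under quantile normalization, without MYOM2), where 13.6% and 22.5% of probe sets were. PDLIM3, MYOM2 and CAPN3 were called higher at 28 dpn over 94 dpc (13.1% of probe sets) and at 188 dpn over 1 dpn (14.2%), and 0 genes lower (17.2% and 15.7%). At 188 dpn over 1 dpn it was 1 of 5 with the even arrays, where PDLIM3 (log2 0.78, adjusted p = 0.0648) and CAPN3 (log2 1.31, adjusted p = 0.0953) were not called, and 5 of 5 with the low arrays. Counts of 0 were the same at an unadjusted p under 0.05. The called rises at 188 dpn over 94 dpc were 14.9-fold for ANKRD1, 9.59-fold for PDLIM3, 8.44-fold for CAPN3, 5.01-fold for XIRP1 and 2.04-fold for MYOM2. The summed skeletal muscle markers were also higher at 188 dpn than at 94 dpc, and their part in these rises was not tested. The steps share stages and so are not independent of each other.

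Animals of the later stage lay wholly above those of the earlier one for 2 of 5 genes at 1 dpn over 94 dpc, where 5.29% of all probe sets did so. It was 1 of 5 at 28 dpn over 1 dpn (4.98%), MYOM2, and 2 of 5 at 188 dpn over 28 dpn (5.21%), ANKRD1 and PDLIM3. Over the whole span it was 5 of 5 at 188 dpn over 94 dpc (13.8%). PDLIM3, MYOM2 and CAPN3 were 3 of 5 at 28 dpn over 94 dpc (9.3%), and MYOM2 was 1 of 5 at 188 dpn over 1 dpn (8.99%).

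**Figure D3:**
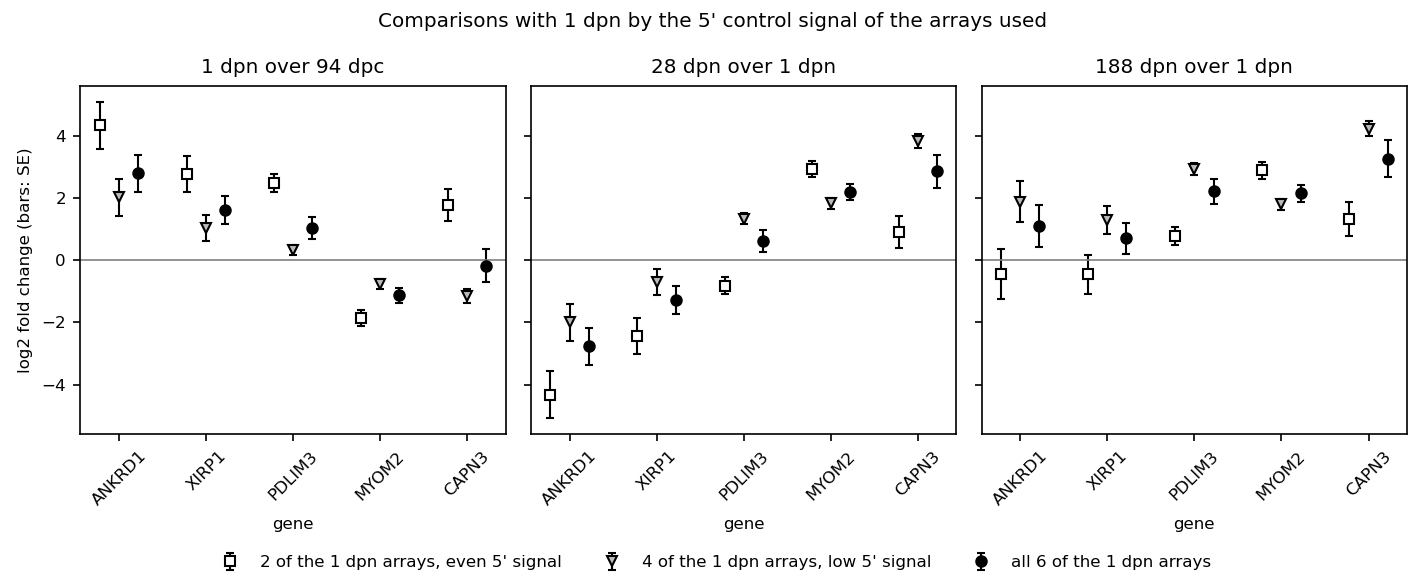
Log2 fold change (points, bars are SE) of the 5 genes in the 3 comparisons that use 1 dpn, with the 2 even arrays (open squares), the 4 low arrays (grey triangles) or all 6 arrays (black circles) of 1 dpn. ANKRD1 and MYOM2 keep their sign in the left and middle panels, while CAPN3 at 1 dpn over 94 dpc is log2 1.76 with the even and -1.16 with the low arrays.

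Ratios within an array put the unequal changes on a scale that hardly moves with a multiplying factor shared by the whole array. They are not free of the 5' signal, which need not act equally on every probe set. ANKRD1 over MYOM2 at 1 dpn differed from 94 dpc by log2 6.20 on the even and 2.78 on the low arrays. The part of the 5' signal in these ratios was not tested. Each of the 10 gene pairs was tested in 6 comparisons by a two-sided exact permutation test, adjusted over 60 tests. ANKRD1 over MYOM2 changed by log2 3.92 at 1 dpn over 94 dpc, by -4.97 at 28 dpn over 1 dpn (exact permutation p = 0.00216, adjusted 0.0081 for each) and by 3.91 at 188 dpn over 28 dpn (exact permutation p = 0.00952, adjusted 0.019). The groups did not overlap in any of these steps, and both kinds of 1 dpn array lay outside the range of 94 dpc and of 28 dpn. XIRP1 over MYOM2 changed by log2 2.75 at 1 dpn over 94 dpc and by -3.47 at 28 dpn over 1 dpn (exact permutation p = 0.00216, adjusted 0.0081 for each). The brighter ANKRD1 probe set also changed more than XIRP1, by log2 1.89 at 188 dpn over 28 dpn (4 against 6 animals, exact permutation p = 0.00952, adjusted 0.019) and 1.17 at 1 dpn over 94 dpc (exact permutation p = 0.013, adjusted 0.0244). The dimmer ANKRD1 probe set changed by log2 2.06 at 188 dpn over 28 dpn, where XIRP1 changed by 1.98. At 1 dpn over 94 dpc these changes were 2.23 and 1.62, and at 28 dpn over 1 dpn -1.40 and -1.28. Ratios of the dimmer ANKRD1 probe set to XIRP1 were not tested.

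PDLIM3 outpaced MYOM2 by log2 2.23 at 188 dpn over 94 dpc (exact permutation p = 0.00952, adjusted 0.019). Relative to the brighter CAPN3 probe set it fell by 1.01 on the log2 scale at 28 dpn over 94 dpc (exact permutation p = 0.00216, adjusted 0.0081), while at 188 dpn over 94 dpc the ratio differed by log2 0.18 (exact permutation p = 0.219, adjusted 0.268). The other CAPN3 probe set changed by log2 0.49 at 28 dpn over 94 dpc, where PDLIM3 changed by 1.66, so relative to that probe set PDLIM3 rose. At 188 dpn over 94 dpc these changes were 0.51 and 3.26, and ratios to that probe set were not tested. Within the 188 dpn animals the log2 ratio of PDLIM3 to CAPN3 had an SD of only 0.098.

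ANKRD1 differed widely between arrays of the same stage. Its highest signal was 10.0 times the lowest at 1 dpn, 15.1 times at 28 dpn and 7.65 times at 188 dpn. Its SD on the log2 scale exceeded that of 97.6%, 99.3% and 98.9% of the 15837 probe sets above background at those stages. MYOM2 varied little, with a highest signal 1.26 times the lowest at 28 dpn and 1.16 times at 188 dpn, and only 4.74% and 5.5% of these probe sets had a smaller SD. CAPN3 at 1 dpn spanned more than ANKRD1, with a highest signal 29.6 times the lowest and an SD above that of 99.6% of them, and at 94 dpc XIRP1 had the larger SD (0.54, and 0.48 for ANKRD1, on the log2 scale). At 1 dpn the spreads of ANKRD1 and CAPN3 ran across both kinds of array, so library and animal differences cannot be told apart. ANKRD1 had 12725 and 14182 on the even and 1417 to 4950 on the low arrays.

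The same animals were not high for every gene. At 28 dpn, replicate 3 had the highest ANKRD1, XIRP1, PDLIM3 and CAPN3 signals. At 188 dpn, replicate 3 had the lowest ANKRD1 and XIRP1 but the highest PDLIM3 and CAPN3, so the genes separated within 1 animal. Without it the rise at 188 dpn over 28 dpn was log2 4.55 for ANKRD1 and 2.40 for XIRP1. Correlations between genes within the 94 dpc and 28 dpn animals (20 computed, n = 6 each) gave no adjusted exact permutation p below 0.334. ANKRD1 and XIRP1 at 28 dpn had a Pearson r of 0.829 (exact permutation p = 0.0458, adjusted 0.458) and a Spearman rho of 0.829 (exact permutation p = 0.0583, adjusted 0.515), and r was 0.427 without the 2 animals farthest from the median ANKRD1 level.

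**Figure D4:**
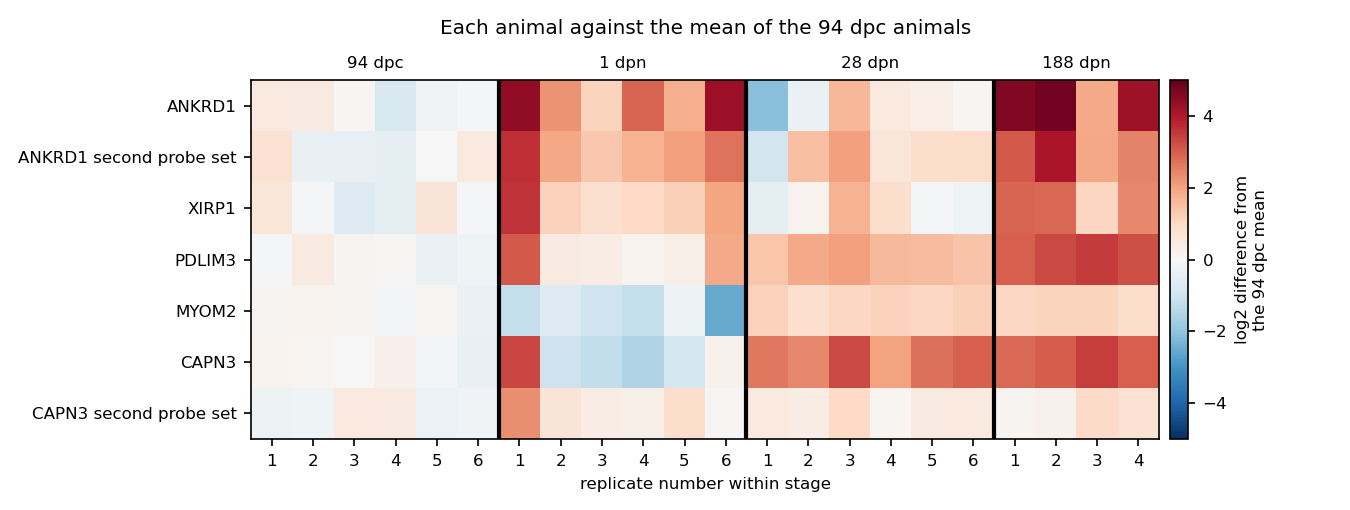
Log2 difference of each animal from the mean of the 94 dpc animals for the 7 probe sets (rows), with animals in columns by stage and replicate number. Replicates 1 and 6 of 1 dpn are high in ANKRD1 and PDLIM3 and low in MYOM2, and replicate 3 of 188 dpn is the palest of its stage in ANKRD1 and XIRP1.

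Genes whose levels over the 22 arrays were most like those of each gene were listed among 5722 named genes above background. ANKRD1 and XIRP1 were each other's nearest gene (r 0.92, and 0.934 over the 16 arrays without 1 dpn). Next for ANKRD1 came HSP70.2, an inducible heat shock protein (r 0.896), the actin-binding profilin PFN2 (0.874), the membrane complex subunit EMC3 (0.873) and SQSTM1, an autophagy receptor (0.851). PFN2, HSP70.2 and EMC3 also followed for XIRP1, with the co-chaperone BAG3 (0.843). HSP70.2 had mean signals of 4171, 11766, 5085 and 26966 at 94 dpc, 1 dpn, 28 dpn and 188 dpn.

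The nearest genes to PDLIM3 were OSER1 and TXNL1 (r 0.958 for each), then the proteasome subunit PSMD6, the ubiquitin-conjugating enzyme UBE2B and the chaperone DNAJB9. For MYOM2 they were STBD1, a glycogen-binding protein (r 0.924), then FN3K, ZC3H11A, RTF1 and ALDH2. STBD1 had mean signals of 3720, 1120, 7551 and 10929 at the successive stages. For CAPN3 they were the importin KPNA3 (r 0.973), KLC1, UCHL3, MKLN1 and UBAC1. MYOM2 and CAPN3 had an r of 0.661 over all arrays, 0.955 without the 2 even arrays and 0.542 without the 4 low arrays. These genes were chosen for their likeness on the same arrays, which share stages and 5' signal, so their values are a description with no test.

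Of the other Z-disc genes, most measured ones were called higher across birth with all arrays. Of 26 genes in the Z-disc list 14 had a probe set, and 11 were called higher and 1 lower at 1 dpn over 94 dpc (10.9% and 21.7% of all probe sets), with a median log2 change of 0.80, against -0.082 over all probe sets. Over the whole span to 188 dpn, 13 were called higher than at 94 dpc and 0 lower, also at an unadjusted p under 0.05 (median log2 1.60, against -0.068 over all probe sets). The count at 1 dpn over 94 dpc was 7 higher and 0 lower with the even arrays, 10 higher and 1 lower with the low arrays, and 7 higher and 1 lower under quantile normalization, which also gave 10 higher over the whole span. All probe sets were called higher in 13.6% and lower in 22.5% of cases over that span. The summed skeletal muscle markers were 571940 to 631000 at 188 dpn, against 221660 to 295090 at 94 dpc. Their part in these counts was not tested. The largest called changes at 1 dpn over 94 dpc were in the LIM protein FHL3 (4135 at 1 dpn, against 629 at 94 dpc, log2 2.18), the co-chaperone BAG3 (log2 1.72), the small heat shock protein CRYAB (log2 1.71) and, downward, the intermediate filament protein SYNM (log2 -1.44). With the even arrays FHL3, BAG3 and CRYAB were called at log2 3.37, 2.68 and 2.05, and SYNM was log2 0.11 (adjusted p = 0.906).

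With all arrays, CRYAB and BAG3 had, like ANKRD1, higher means at 1 dpn and 188 dpn than at 94 dpc and 28 dpn. Unlike ANKRD1, both were also called higher at 28 dpn over 94 dpc (log2 0.83 for CRYAB, 0.89 for BAG3). CRYAB averaged 16062 at 28 dpn, against 30612 at 1 dpn (log2 -0.87 ± 0.21, adjusted p = 0.00468), and 31189 at 188 dpn, against 16062 at 28 dpn (log2 0.94 ± 0.24, adjusted p = 0.0116). BAG3 was called lower at 28 dpn over 1 dpn with all arrays (log2 -0.83 in limma, adjusted p = 0.0293). On the low arrays of 1 dpn it had 4662 to 5670, within the 3008 to 6071 of 28 dpn. The even arrays had 10791 and 18134. BAG3 averaged 8066 at 188 dpn, against 4154 at 28 dpn (log2 0.98 ± 0.30, adjusted p = 0.0357), a call lost under quantile normalization (log2 0.85, adjusted p = 0.0764). Of the 14 genes, 5 were called higher and 2 lower at 28 dpn over 1 dpn (13.9% and 8.39% of all probe sets), with SYNM (log2 2.52), nebulin, NEB (1.05), and the capping protein subunit CAPZA2 (13475 at 28 dpn, against 5121 at 1 dpn) highest. The counts were 4 higher and 2 lower with the even arrays, and 7 higher and 1 lower with the low arrays. In the last step 2 were higher at 188 dpn over 28 dpn and 1, CAPZB, lower (log2 -0.74), against 3.65% and 8.2% of all probe sets. Centring arrays on their median gave 4 higher and 0 lower, with CAPZB at log2 -0.53 (adjusted p = 0.087). The largest rises over the whole span were in FHL3 (log2 4.17), SYNM (2.52), NEB (2.19) and myotilin, MYOT (2.09).

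Of 18 M-band and titin genes 12 were measured. At 1 dpn over 94 dpc, 4 were called higher and 2 lower (10.9% and 21.7% of all probe sets), with 2 and 2 under quantile normalization and 6 and 2 after centring. They were led by SQSTM1 (10476 at 1 dpn, against 3453 at 94 dpc), the LIM protein FHL2 (log2 -1.47), the slow-type myosin-binding protein MYBPC1 (-1.31) and the muscle enolase ENO3 (0.79, and 0.29 with no call under quantile normalization). MYBPC1 resembled MYOM2 in its steps, with 11778 at 1 dpn, against 24576 at 94 dpc, and 36305 at 28 dpn, against 11778 at 1 dpn (log2 1.81 ± 0.30, adjusted p = 0.000148). With the even arrays the MYBPC1 change at 1 dpn over 94 dpc was log2 -0.67 (adjusted p = 0.199). By 28 dpn, 6 were higher and 2 lower than at 1 dpn (13.9% and 8.39% of all probe sets), among them the methyltransferase SMYD2 (log2 1.38) and myomesin, MYOM1 (1.03), higher, and SQSTM1 (-1.03), lower. Between 188 dpn and 28 dpn, SQSTM1 was higher (log2 1.32) at 188 dpn and the titin-linked ligase TRIM55 lower (-1.01). Over the whole span 7 were higher at 188 dpn and 2 lower (13.6% and 22.5% of all probe sets), with 4 and 2 under quantile normalization. They included titin, TTN, at 54837 at 188 dpn, against 20948 at 94 dpc (log2 1.39), SMYD2 at log2 2.37 and FHL2 at -3.11. The part of the higher skeletal muscle markers at 188 dpn in these changes was not tested.

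**Figure D5:**
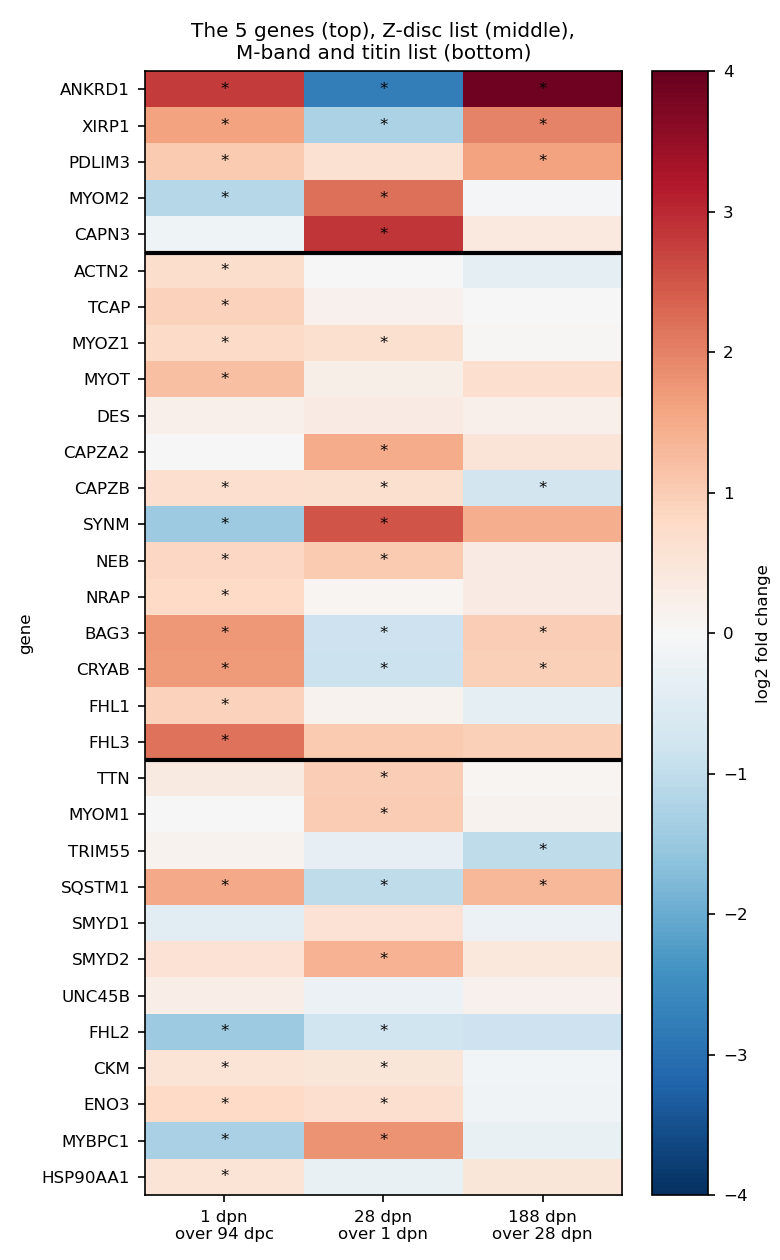
Log2 fold change (colour) in the 3 successive steps for the 5 genes, the 14 measured Z-disc list genes and the 12 measured M-band and titin list genes (rows). Asterisks mark an adjusted p under 0.05, which 11 Z-disc list genes reach upward at 1 dpn over 94 dpc.

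Relatives of ANKRD1 and XIRP1 were few on the array, with 3 of 6 measured. XIRP2, the paralogue of XIRP1, rose in both steps up to 28 dpn: it averaged 5721 at 1 dpn, against 2553 at 94 dpc (log2 1.12 ± 0.22, adjusted p = 0.000513), and 16946 at 28 dpn, against 5721 at 1 dpn (log2 1.64 ± 0.22, adjusted p = 1.79e-05). XIRP1 was called lower at 28 dpn over 1 dpn, near the threshold, so these paralogues were called in opposite directions there, a difference that was not itself tested. The adhesion protein VCL and the actin-binding CTTN were not called in any of the 6 comparisons as deposited. After centring, CTTN was called higher at 1 dpn over 94 dpc (log2 0.45 in limma, adjusted p = 0.0246). Centring also gave 2 of the 3 called higher at 188 dpn over 94 dpc, and 1 higher and 1 lower at 28 dpn over 1 dpn.

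In the PDZ-LIM family, 5 of 9 listed genes were measured. At 1 dpn over 94 dpc, 1 was called higher and 2 lower (10.9% and 21.7% of all probe sets). These counts were 1 and 1 with the even arrays, and 1 and 3 with the low arrays. PDLIM5, another alpha-actinin partner, rose with PDLIM3 (21164 at 188 dpn, against 6412 at 94 dpc, log2 1.72 ± 0.23, adjusted p = 2.37e-06). PDLIM4 fell over the same span (562 at 188 dpn, against 1553 at 94 dpc, log2 -1.47 ± 0.21, adjusted p = 9.21e-06). PDLIM7 was dim, with means of 19.0 at 188 dpn and 131 at 94 dpc, and was called lower. In limma 0 of the 5 were called at 28 dpn over 1 dpn (0 at an unadjusted p under 0.05) and 0 at 188 dpn over 28 dpn (2 at an unadjusted p under 0.05, both lower). Of all probe sets, 13.9% were called higher and 8.39% lower in the first of these steps, and 3.65% and 8.2% in the second. A count of 0 of 5 lies near these shares. With the low arrays 1 of the 5 was called lower at 188 dpn over 28 dpn.

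Of 7 calpain system genes 5 were measured, and 4 were called lower and 0 higher at 1 dpn over 94 dpc (21.7% and 10.9% of all probe sets), with the same counts at an unadjusted p under 0.05. These were the calpain inhibitor CAST (log2 -1.14), the ubiquitous calpain CAPN1 (-0.98), CAPN7 (-0.66) and the small subunit CAPNS1 (-0.63). CAPN7 was not called under quantile normalization (log2 -0.34) nor CAPNS1 after centring (log2 -0.37). CAPN1 (log2 1.16) and CAPN7 (0.83) were higher at 28 dpn over 1 dpn, as the brighter CAPN3 probe set was with all arrays. That CAPN3 probe set was not called with the even arrays (log2 0.91). The other CAPN3 probe set was log2 -0.27 with all arrays and not called. CAST was higher in the last step (1216 at 188 dpn, against 421 at 28 dpn, log2 1.51 ± 0.30, adjusted p = 0.00204). Over the whole span CAPN2 was lower (log2 -0.67, and -0.40 with no call after centring), and CAST (1.07) and CAPN7 (0.63) were higher.

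ANKRD1 is a known target of the YAP and SRF regulators of transcription. A list of 15 genes held targets of these regulators and also the regulators and their partners, so it is not a list of targets alone. Of these, 6 were measured: CYR61, TEAD1, TEAD4, MYOCD, ACTC1 and TAGLN. In both successive steps at which ANKRD1 rose, limma called 0 of them higher, also at an unadjusted p under 0.05, where 10.9% (1 dpn over 94 dpc) and 3.65% (188 dpn over 28 dpn) of all probe sets were, so a count of 0 of 6 lies near the share over all. After centring, TEAD1, a DNA-binding partner of YAP, was called higher at 188 dpn over 28 dpn (log2 0.57). It was called lower at 1 dpn over 94 dpc (log2 -0.53), a call lost under quantile normalization (log2 -0.20) and after centring (log2 -0.27). The secreted CYR61 was lower at 28 dpn over 1 dpn (790 at 28 dpn, against 2410 at 1 dpn, log2 -1.48 ± 0.38, adjusted p = 0.00738) and TEAD1 higher (512 at 28 dpn, against 172 at 1 dpn). ACTC1, the cardiac actin of fetal muscle, averaged 3391 at 188 dpn, against 30214 at 28 dpn (log2 -4.03 ± 0.54, adjusted p = 6.12e-05). Over the whole span TEAD1 was higher at 188 dpn (log2 1.34), and ACTC1 (-4.37) and TAGLN (-0.71), an actin-binding protein of smooth muscle, were lower. The TAGLN call was lost under quantile normalization (log2 -0.51) and after centring (log2 -0.44).

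The calls named from these lists by largest change in comparisons with 1 dpn were kept with the low arrays. BAG3 at 28 dpn over 1 dpn and the PDZ-LIM genes at 1 dpn over 94 dpc are not covered by this. With the even arrays the other calls were lost for MYBPC1, ENO3, TEAD1, SYNM and CAPNS1 at 1 dpn over 94 dpc and for SMYD2 and SYNM at 28 dpn over 1 dpn.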

How the data were processed

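The deposited table held linear signal intensity per probe set for 22 arrays, and the submitters' processing notes name GCOS 1.1.1. Biotinylated cRNA came from 0.5 µg of total RNA (TRI Reagent, DNase, RNeasy), per the labels. The deposited intensity had a mean of 500 on every array after trimming 2% at each end, so log2(signal + 16) was used unnormalized. limma 3.58.1 (R 4.3.3) fitted 4 stage means to 23999 non-control probe sets, with Benjamini-Hochberg adjustment per comparison and calls at an adjusted p under 0.05. Folds on this scale understate the change of dim genes. Of these probe sets 10069 had 1 symbol (9961 matched RefSeq identifiers), 198 several and 13732 none. Background was the 95th percentile of 23 absent-target controls. Up to 4 called genes per list and comparison, by largest change, and the 5 genes most like each gene are named. Genes, lists and the 5' split were chosen with earlier results of these data known. Ratios used exact permutation tests (scipy 1.17.1). The number of arrays limits precision. Alternatives are given in the closing section, and the fit was tested on simulated data.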

Additional observations from a re-analysis of the deposited data

Results flagged for a closer look

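In 28 groups of 4 to 6 animals, 2 had an animal that stood apart from the rest, by a gap to its nearest neighbour that exceeded Dixon's critical share of the group's range on the log2 scale, which is 0.628 for 6 animals and 0.83 for 4 (computed here for normally distributed values). Chance gives this in about 1 in 20 groups. Both were 1 dpn replicate 1, in CAPN3 at a signal of 8351 (gap 0.648 of the range) and in the other CAPN3 probe set at 3957 (gap 0.64). This array had even 5' control signal. Its ANKRD1, XIRP1 and PDLIM3 signals were also the highest of 1 dpn.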

How the results depend on the processing

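The 30 changes (5 genes, 6 comparisons) were recomputed under 34 alternatives. Of these values, 957 kept direction and side of the threshold, 31 kept direction but lost the call, 7 gained it and 25 changed direction. ANKRD1 and MYOM2 at 1 dpn over 94 dpc and at 28 dpn over 1 dpn, all 5 genes except MYOM2 at 188 dpn over 94 dpc, and ANKRD1, XIRP1 and PDLIM3 at 188 dpn over 28 dpn kept direction and call in all 34. The cause of the changes below was not tested.

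Values are log2 changes. Quantile normalization gave PDLIM3 0.85 and CAPN3 0.037 (1 dpn over 94 dpc), XIRP1 -1.19 (28 dpn over 1 dpn), and MYOM2 0.13 (188 dpn over 28 dpn), 0.58 (188 dpn over 94 dpc) and 0.45 (28 dpn over 94 dpc). Centring arrays on their median gave CAPN3 0.077 (1 dpn over 94 dpc) and MYOM2 0.17 (188 dpn over 28 dpn). These scalings moved the median of all probe sets at 188 dpn over 94 dpc to 0.061 and 0.20, against -0.068 as deposited. A pseudocount of 1 gave XIRP1 -1.29 (28 dpn over 1 dpn). Array weights gave XIRP1 -1.06 and PDLIM3 0.94 (28 dpn over 1 dpn) and ANKRD1 -0.074 (28 dpn over 94 dpc). Fitting only the stages compared gave PDLIM3 1.04 (1 dpn over 94 dpc, adjusted p = 0.0865) and XIRP1 -1.28 (28 dpn over 1 dpn, adjusted p = 0.0941). It called 3347 probe sets instead of 5357 at 28 dpn over 1 dpn and 4695 instead of 7167 at 188 dpn over 1 dpn, with fewer samples in the fit. The mean of both probe sets gave CAPN3 0.29 (1 dpn over 94 dpc). Without the 2 arrays richest in liver and pancreas markers the values were PDLIM3 1.04 (1 dpn over 94 dpc), XIRP1 -1.28 (28 dpn over 1 dpn) and ANKRD1 -0.061 (28 dpn over 94 dpc).

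Adjusting for the GAPDH 5'/3' ratio gave CAPN3 1.42 (1 dpn over 94 dpc), PDLIM3 -0.57 and CAPN3 1.40 (28 dpn over 1 dpn), MYOM2 0.046 (188 dpn over 28 dpn), and ANKRD1 -0.47, XIRP1 -0.46 and CAPN3 1.62 (188 dpn over 1 dpn). For the dimmer probe sets it gave CAPN3 -0.015 (188 dpn over 28 dpn) and ANKRD1 -0.20 (188 dpn over 1 dpn). The even arrays gave CAPN3 1.76 (1 dpn over 94 dpc), PDLIM3 -0.82 and CAPN3 0.91 (28 dpn over 1 dpn), and ANKRD1 -0.44, XIRP1 -0.45, PDLIM3 0.78, CAPN3 1.31 and the dimmer ANKRD1 probe set -0.27 (188 dpn over 1 dpn), with PDLIM3 and CAPN3 no longer called there. The low arrays, added after the data were seen, gave XIRP1 1.04, PDLIM3 0.32 and CAPN3 -1.16 (1 dpn over 94 dpc), XIRP1 -0.70 and PDLIM3 1.34 (28 dpn over 1 dpn), and ANKRD1 1.88 and XIRP1 1.29 (188 dpn over 1 dpn).

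Leaving out 1 animal at a time changed calls or directions for 6 values: PDLIM3 0.64 to 1.22 and CAPN3 -0.88 to 0.078 (1 dpn over 94 dpc), XIRP1 -1.56 to -0.88 and PDLIM3 0.45 to 1.02 (28 dpn over 1 dpn), MYOM2 -0.077 to 0.011 (188 dpn over 28 dpn) and ANKRD1 -0.31 to 0.44 (28 dpn over 94 dpc). For the dimmer ANKRD1 probe set the call at 28 dpn over 1 dpn was lost without any of 3 animals (log2 -1.31 to -1.05). At 28 dpn over 94 dpc that probe set gained a call without 28 dpn replicate 1 (log2 1.19). The dimmer CAPN3 probe set, never called in these steps, ranged over -0.41 to 0.044 (28 dpn over 1 dpn), -0.13 to 0.15 (188 dpn over 28 dpn) and -0.40 to 0.065 (188 dpn over 1 dpn). At 1 dpn over 94 dpc it gained a call without 94 dpc replicate 3 or 4 or 1 dpn replicate 3, 4 or 6 (log2 0.84 to 0.90). No paired analysis was possible because replicate numbers were given in accession order and pair no animals. At 1 dpn, 2 even arrays limit every value that rests on them, and ANKRD1's dimmer probe set lay at background in 4 of 6 fetuses.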
